A study of Homo sapiens with 22 samples.

Results

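MV-4-11 is a human acute myeloid leukaemia line with a KMT2A-AFF1 fusion and an internal tandem duplication in FLT3. The comparison set 2 libraries from MV-4-11 cells given 1 µM BRM014 for 24 h against 2 libraries from the same line given an equal volume of the solvent, dimethyl sulfoxide (DMSO). These 4 libraries, chosen by their labels, are all that the series holds of the 2 groups, out of 22 libraries in 11 groups of 2. Each covers 28063 gene symbols, of which 16794 passed a filter on low counts and were tested. The filter used all 22 libraries, and 1029 of the genes tested had no read in these 4. Cells of every group grew in RPMI with 10% fetal bovine serum, and polyadenylated RNA was sequenced. How long the DMSO cells had been in culture is not given, so an effect of BRM014 at 24 h cannot be told apart from one of time in culture. Used beside them were the 2 MV-4-11 libraries given 1 µM BRM014 for 72 h, and the DMSO and 24 h BRM014 libraries, 2 each, of MOLM-13 and THP-1. Those are 2 other myeloid leukaemia lines with a KMT2A fusion, treated in the same way. Nothing in the labels says that the 2 libraries of a group came from separate cultures, so a p-value here covers library-to-library variation only, possibly technical.

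BRM014 blocks the ATPase activity of SMARCA4 (BRG1) and SMARCA2 (BRM), the alternative motors of the SWI/SNF complexes. These complexes slide and evict nucleosomes and keep enhancers accessible to transcription factors. In myeloid leukaemia cells they are known for sustaining the enhancers of MYC and the binding of the lineage factor PU.1, encoded by SPI1. PU.1 is a member of the ETS family that switches on genes of monocytes and granulocytes.

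Reads given to genes numbered 17992207 and 20873372 in the DMSO libraries and 18501656 and 21052019 in the 24 h libraries. Reads that matched no counted feature made up 14.3% and 13.8% of a DMSO file, 12% of each 24 h file and 13.1% and 13.5% of the 72 h files. Whether this difference bears on the changes below was not tested. The line was checked against its markers. PTPRC (CD45) stood at 226 and 220 CPM (counts per 1000000 reads of scaled library size) in DMSO and 211 and 166 CPM at 24 h, CD33 at 58.3 and 64.8 CPM against 26.6 and 27.6 CPM, and FLT3 at 171 and 180 CPM against 295 and 303 CPM. All 3 were thus present in both groups. CSF1R, CD14 and ITGAM, receptors of mature monocytes, were low in DMSO at 2.57 and 2.89, 1.29 and 0.587, and 2.07 and 2.20 CPM.

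At 24 h, 3971 genes were higher with BRM014 than with DMSO (23.6% of those tested) and 3763 were lower (22.4%), at an adjusted p under 0.05 in edgeR's quasi-likelihood test. These shares include the genes without reads in the 4 libraries, which could not be called. With only the 4 libraries filtered and fitted, 4362 of 13361 genes were higher and 4300 lower, which are larger shares. Counts in the gene lists below are to be read beside both. In the fit of all 22 libraries, 1135 genes rose by at least 1 on the log2 scale (6.76%) and 1491 fell (8.88%). At 2 log2 units or more, 616 genes fell and 384 rose, and at 4 log2 units or more the counts were 205 and 88. The median log2 fold change over all genes tested was 0, a value that the scaling of the libraries holds near 0, and the median size was 0.48. A change in RNA output shared by all genes cannot be seen after such scaling. The genes that rose by 1 or more went from a median of 3.67 CPM in DMSO to 12.6 CPM at 24 h. Those that fell by 1 or more went from a median of 9.32 CPM to 2.38 CPM. Levels of the 2 DMSO libraries did not overlap those of the 2 BRM014 libraries in 12003 genes (71.5%), which include many that were not called. With 16 exceptions, every called gene had groups that did not overlap.

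**Figure D1:**
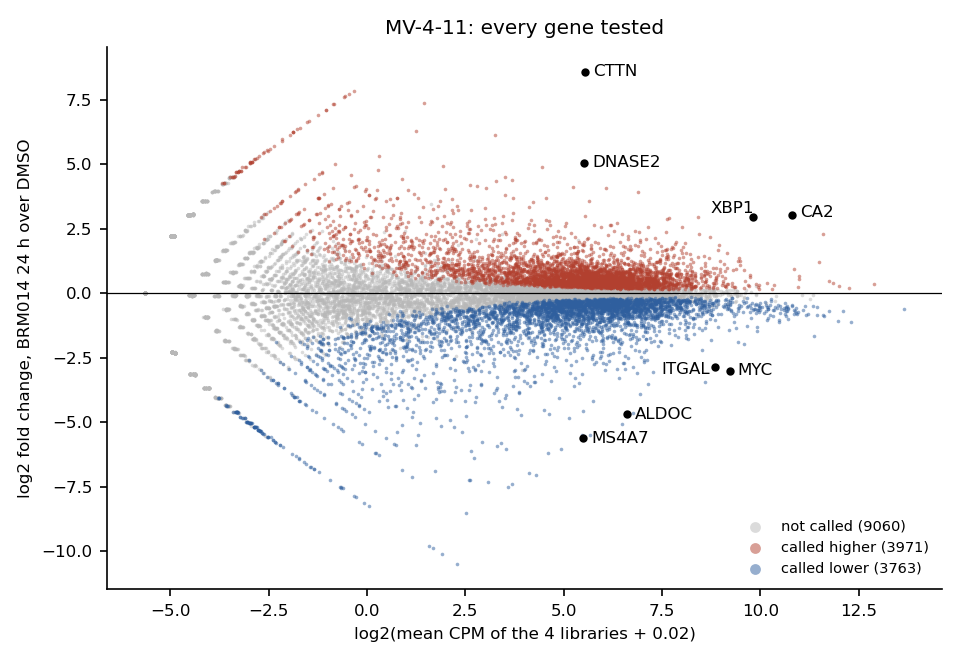
Each point is 1 of the 16794 genes tested, with the log2 of its mean CPM over the 4 libraries (plus 0.02) on the horizontal axis and its log2 fold change, BRM014 24 h over DMSO, on the vertical axis. Grey points were not called (9060 genes), red were called higher (3971) and blue lower (3763); CTTN at 8.60 stands apart among well expressed genes, and the slanted lines at the left are genes with reads in 1 group only, whose fitted fold depends on the prior count.

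The steepest gain among expressed genes was CTTN, which encodes the actin-branching protein cortactin (chr11:70398404-70436584, GRCh38). It read 0.056 and 0.391 CPM in DMSO and 89.9 and 97.1 CPM at 24 h, a gene almost silent in both control libraries and well expressed in both treated ones (log2 fold change 8.60 ± 0.20 SE, adjusted p = 1.7e-16). The estimate rests on few DMSO reads and was 7.88 without DMSO replicate 1 and 10.55 without DMSO replicate 2. DMPK, the kinase of myotonic dystrophy (chr19:45769717-45782552), went from 0.392 and 0.147 CPM to 18.6 and 18.8 CPM, or by 6.12 ± 0.38 (6.93 without DMSO replicate 1). Its neighbour DMWD, a gene of WD repeats (chr19:45782947-45792802), went from 1.4 and 1.42 CPM to 41.4 and 42.3 CPM, or by 4.89 ± 0.18. SIX5, a homeobox gene next to DMPK that was picked after its value was seen, rose by 3.23 ± 0.30, so 3 neighbours rose together. DNASE2, the lysosomal acid DNase, had 1.96 and 3.33 CPM in DMSO and 86.3 and 92.2 CPM at 24 h (5.05 ± 0.16). NLRP12, a negative regulator of inflammatory signalling in myeloid cells, had 0.112 and 0.343 CPM against 7.39 and 7.25 CPM (4.92 ± 0.25, and 5.95 without DMSO replicate 2). The long noncoding RNA LINC00968 had a single read in the DMSO group and 221 at 24 h, a ratio of 207 with an exact 95% interval of 36.7 to 8195 that covers counting error only.

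Others among the 12 largest gains included signalling genes. OSM, a cytokine of the interleukin-6 family, rose from 1.01 and 0.881 CPM to 21.0 and 22.6 CPM (4.53 ± 0.19). AVPR2, the vasopressin V2 receptor, rose from 0.671 and 1.61 CPM to 23.8 and 25 CPM (4.38 ± 0.41, and 5.17 without DMSO replicate 2). KLF2, a Kruppel-like factor of quiescence, rose from 0.895 and 0.881 CPM to 15.6 and 15.1 CPM (4.10 ± 0.22). HMOX1, heme oxygenase 1, rose from 0.616 and 0.832 CPM to 10.6 and 15.8 CPM (4.17 ± 0.29). LINC00694 rose by 4.20 ± 0.33. PSMB3, a proteasome subunit, met the rule for the largest gains through 1 library: it read 3.58 and 4.70 CPM in DMSO, 5.77 in 24 h replicate 1 and 137 in replicate 2. Its log2 fold change of 4.11 ± 1.02 was 0.47 (adjusted p = 0.771) without 24 h replicate 2.

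Among the 12 steepest losses, 4 genes had no read left in either 24 h library. TIFAB (9.18 and 10.4 CPM in DMSO), an adaptor that restrains TRAF6 signalling, was at least 134-fold lower against a floor of 3 counts over the group. MS4A6A (7.44 in both DMSO libraries), a four-pass membrane protein of monocytes, was at least 102-fold lower. CD180 (6.21 and 6.51 CPM), a Toll-like receptor homologue, was at least 87.0-fold lower, and JPH2 (6.16 and 5.63 CPM), a junctophilin, at least 80.2-fold lower. DCANP1 overlaps TIFAB on the same strand, so its loss, from 434 reads to 1, cannot be separated from that of TIFAB. ARG1, the arginase of suppressive myeloid cells (chr6:131573144-131584332), fell from 32.8 and 36.0 CPM to 0.210 and 0.319 CPM (-6.97 ± 0.49). C6orf223 fell from 23.4 and 27.6 CPM to 0.105 and 0.182 CPM (-7.39 ± 0.37), and FAM135B from 23.2 and 24.1 CPM to 0.105 and 0.137 CPM (-7.53 ± 0.49). In each of these genes both DMSO libraries were high and both BRM014 libraries near 0. The rule that named them required groups that do not overlap. The receptor phosphatase PTPRS had 467 reads in DMSO and 3 at 24 h, a ratio of 167 (exact 95% interval 56.6 to 811), and MIR210HG, the host RNA of a microRNA known to be induced in hypoxia, had 460 and 3, a ratio of 164 (55.8 to 798). CACNA2D3, a calcium channel subunit, fell by 7.34 ± 0.50 and the uncharacterised LOC100130872 by 7.03 ± 0.32 (-7.69 without 24 h replicate 1).

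**Figure D2:**
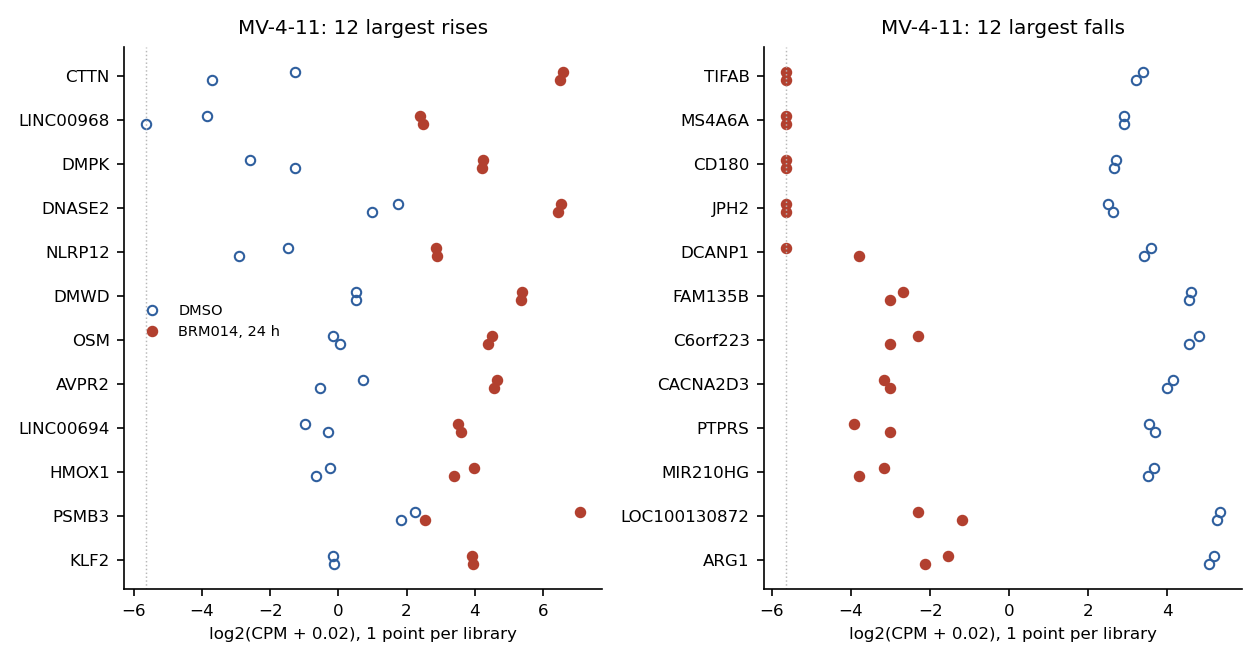
The 12 genes with the largest gain and the 12 with the steepest loss after 24 h of BRM014, each with its log2(CPM + 0.02) in the 2 DMSO and the 2 BRM014 libraries (1 point per library). The dotted line marks a level of 0 reads, on which TIFAB, MS4A6A, CD180 and JPH2 lie at 24 h, and the 2 BRM014 libraries of PSMB3 (5.77 and 137 CPM) lie far apart.

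Over all genes, 14 with at least 30 reads in the DMSO group had none at 24 h, and 9 had none in DMSO and at least 30 at 24 h. MPEG1, the pore-forming perforin 2 of macrophages, belonged to the first kind at 1.51 and 2.54 CPM in DMSO (at least 28.2-fold lower). On the other side stood SDC3, a heparan sulfate proteoglycan, at 1.63 and 1.46 CPM after 24 h (at least 19.6-fold higher), and CFAP206, a gene of cilia, at 1.26 and 1.60 CPM (at least 18.4-fold). The cytokine IL17C reached 1.47 and 1.19 CPM (at least 16.8-fold), the prostaglandin receptor PTGER1 1.26 and 1.32 CPM (at least 16.5-fold) and the chemokine receptor CXCR3 0.787 and 1.32 CPM (at least 13.7-fold). Each of these 5 genes had reads in both 24 h libraries. Having none in DMSO was the rule by which they were chosen.

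The transcripts of the 2 drug targets moved little. SMARCA4 was at 278 and 280 CPM in DMSO and at 289 and 311 CPM at 24 h (0.11 ± 0.07, adjusted p = 0.21). SMARCA2 fell from 182 and 184 CPM to 147 and 146 CPM (-0.32 ± 0.06). Of 28 SWI/SNF subunits tested, 14 rose and 5 fell, with a median log2 fold change of 0.38. ARID2, the subunit that defines the PBAF form, rose from 46.0 and 50.3 CPM to 171 and 150 CPM (1.74 ± 0.11). BICRAL, of the GBAF form, rose by 1.14 ± 0.10 and SS18 by 1.11 ± 0.06. The core scaffold SMARCC1 fell from 324 and 341 CPM to 223 and 232 CPM (-0.55 ± 0.07), SMARCD2 by 0.70 ± 0.08 and PHF10 by 0.41 ± 0.07. Of 28 Polycomb genes and other remodellers, 8 rose (5 without DMSO replicate 1) and 4 fell. Over all genes, 23.6% rose and 22.4% fell. CHD8, a chromatin remodeller, rose by 0.66 ± 0.08.

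The factors that govern myeloid identity split. SPI1, which encodes PU.1 (chr11:47354860-47378576), fell from 341 and 333 CPM to 85.7 and 83.5 CPM (-2.0 ± 0.12), and IRF8, its partner in monocyte development, from 252 and 266 CPM to 24.0 and 21.5 CPM (-3.51 ± 0.10). LYL1, a basic helix-loop-helix factor of blood progenitors, fell from 124 and 111 CPM to 18.2 and 17.3 CPM (-2.72 ± 0.18). CEBPA, the granulocyte-monocyte factor, rose from 364 and 357 CPM to 649 and 624 CPM (0.82 ± 0.10). RUNX1 rose from 194 and 201 CPM to 395 and 411 CPM (1.03 ± 0.07), GFI1 from 205 and 201 CPM to 362 and 364 CPM (0.84 ± 0.06), and KLF4 from 3.69 and 4.35 CPM to 15.5 and 18.3 CPM (2.07 ± 0.16). The libraries of these factors did not overlap between the groups, which holds for nearly every called gene. MYB, which maintains progenitors, was at 539 and 542 CPM against 558 and 584 CPM (0.08 ± 0.07, adjusted p = 0.39). In the list of 30 blood transcription factors, 9 rose, 10 fell and the median was 0. Of the 32 listed, 4 had no read in the 4 libraries. With only the MV-4-11 libraries fitted, 26 were tested and the median was 0.045.

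MYC (chr8:127735434-127741434) fell from 1049 and 1080 CPM to 126 and 139 CPM (-3.01 ± 0.08). In the MYC network, 6 of 14 genes rose, 2 of them by 1 or more, and 7 fell, 4 of them by 1 or more. Besides MYC, CCDC26 of the same list fell by 6.41 (-7.78 to -5.78 under the alternatives). Rising members of the network included MYCL, a MYC paralogue, from 13.3 and 15.7 CPM to 41.1 and 44.6 CPM (1.56 ± 0.10). The MYC antagonists MXD4 (1.08 ± 0.11) and MXD1 (0.91 ± 0.13) rose as well. In each of the 3, both BRM014 libraries lay above both DMSO libraries, as in nearly every gene called higher. Of 30 genes of ribosome biogenesis, a classical output of MYC, none rose (2 with only the MV-4-11 libraries fitted) and 20 fell, with a median of -0.42. NOLC1, a nucleolar chaperone, fell from 441 and 444 CPM to 194 and 198 CPM (-1.17 ± 0.07). FBL, the methyltransferase of ribosomal RNA, fell by 1.11 ± 0.15 and NPM1, nucleophosmin, by 1.02 ± 0.07.

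Of 25 genes of the KMT2A fusion program, 12 rose, 4 of them by 1 or more, and 4 fell, 3 of them by 1 or more, with a median of 0.33. BCL2, a member of this list, fell by 1.33 (-1.38 to -1.26 under the alternatives). The count of falling members was 1 without 24 h replicate 1 or DMSO replicate 2 and 2 without either other library. FLT3, the mutated receptor kinase of this line, rose by 0.77 ± 0.06, and AFF1, the fusion partner of KMT2A, from 296 and 291 CPM to 480 and 523 CPM (0.77 ± 0.13). Reads from the fusion and from the normal alleles cannot be told apart in gene counts. SENP6, a SUMO protease, rose from 44.4 and 35.5 CPM to 157 and 129 CPM (1.84 ± 0.13) and HOXA11 from 12 and 12.9 CPM to 31.2 and 30.1 CPM (1.29 ± 0.10). HOXA9 was at 8.95 and 7.63 CPM against 13.5 and 12.4 CPM (0.64 ± 0.19, adjusted p = 0.0096). Its call was lost without 24 h replicate 1 (0.59, adjusted p = 0.0599) and without DMSO replicate 2 (0.53, adjusted p = 0.10). MEIS1, its cofactor, was at 31.2 and 35.8 CPM against 20.6 and 25 CPM (-0.56 ± 0.16, adjusted p = 0.0072), with calls lost without the same 2 libraries (adjusted p = 0.0972 and 0.0878).

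Many effector genes of mature myeloid cells fell. Of 37 PU.1 regulated myeloid genes, 23 fell, 21 of them by 1 or more, and 4 rose, against 22.4% and 23.6% of all genes, with a median of -1.32. TLR4, the endotoxin receptor, fell from 27.1 and 27.0 CPM to 1.78 and 2.05 CPM (-3.81 ± 0.23). MPO, the myeloperoxidase of granules, fell from 72.1 and 69.9 CPM to 7.24 and 7.34 CPM (-3.28 ± 0.19). CSF1R, the receptor of macrophage colony-stimulating factor, fell from 2.57 and 2.89 CPM to 0.105 and 0.411 CPM (-3.32 ± 0.36, with -2.71 and -4.63 without 24 h replicate 1 and 2). ITGAX, the integrin CD11c, fell from 11.6 and 13.7 CPM to 0.419 and 0.912 CPM (-4.21 ± 0.28, and -4.91 without 24 h replicate 2). BTK, a kinase of antigen and Toll-like receptor signalling, fell from 190 and 191 CPM to 25.1 and 27.8 CPM (-2.85 ± 0.08). VAV1, a signalling adaptor and exchange factor of blood cells in the same list, was at 105 and 106 CPM against 112 and 109 CPM (0.07 ± 0.08, adjusted p = 0.52). NCF1, a subunit of the NADPH oxidase with near-identical pseudogenes that make its counts uncertain, rose from 30.6 and 32.7 CPM to 57.6 and 59.7 CPM (0.89 ± 0.13). CD68, a lysosomal membrane glycoprotein, rose from 205 and 206 CPM to 292 and 288 CPM (0.50 ± 0.07). Fewer cells of a type and less RNA per cell cannot be told apart in bulk RNA.

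The 250 bases upstream of the RefSeq start (GRCh38.p14) were searched on both strands for GAGGAAGT, a core that PU.1 is known to bind, found in 2.13% of 27305 such windows. TLR4 (chr9:117704153-117704402, plus strand), BTK (chrX:101390797-101391046, minus strand), NCF1 (chr7:74773761-74774010, plus strand) and VAV1 (chr19:6772458-6772707, plus strand) each hold it. They are printed 5′ to 3′, with the match or its reverse complement in capitals, because TLR4 and BTK fell, NCF1 rose and VAV1 was not called. TYROBP and PRTN3 of the same list hold it too and were not called. BTK, VAV1 and TYROBP were chosen after their values were seen. A match describes the letters only.
TLR4: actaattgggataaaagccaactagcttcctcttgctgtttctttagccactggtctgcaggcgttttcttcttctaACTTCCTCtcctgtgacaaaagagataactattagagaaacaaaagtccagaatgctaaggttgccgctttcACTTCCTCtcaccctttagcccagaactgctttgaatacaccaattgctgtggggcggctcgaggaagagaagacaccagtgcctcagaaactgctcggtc
BTK: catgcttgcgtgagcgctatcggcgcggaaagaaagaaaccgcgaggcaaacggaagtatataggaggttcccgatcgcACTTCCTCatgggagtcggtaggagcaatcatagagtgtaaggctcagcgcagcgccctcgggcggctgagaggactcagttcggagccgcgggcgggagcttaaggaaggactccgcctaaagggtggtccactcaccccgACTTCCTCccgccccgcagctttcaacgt
NCF1: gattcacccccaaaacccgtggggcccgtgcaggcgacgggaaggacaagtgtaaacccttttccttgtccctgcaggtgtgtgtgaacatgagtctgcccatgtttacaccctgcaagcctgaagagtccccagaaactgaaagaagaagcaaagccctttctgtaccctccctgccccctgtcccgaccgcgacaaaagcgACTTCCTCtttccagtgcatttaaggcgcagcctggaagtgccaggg
VAV1: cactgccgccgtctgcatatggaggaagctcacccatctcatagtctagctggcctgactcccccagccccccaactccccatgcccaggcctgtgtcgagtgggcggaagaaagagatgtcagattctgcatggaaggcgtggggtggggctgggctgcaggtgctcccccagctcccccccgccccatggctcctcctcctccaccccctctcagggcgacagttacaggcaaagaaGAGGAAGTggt

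Granule proteins of neutrophils and eosinophils fell in 15 of 22 cases, all by 1 or more, with a median of -1.36 (-1.27 with genes at 0 set to their bound). PRG2, the eosinophil major basic protein, fell from 190 and 205 CPM to 70.2 and 74.6 CPM (-1.45 ± 0.11). S100A12, of the calgranulin family, went from 0.448 and 0.685 CPM to no reads (at least 7.85-fold lower). The 2 that rose were SRGN, the granule proteoglycan serglycin, from 4533 and 4521 CPM to 5240 and 5261 CPM (0.21 ± 0.07), and CAMP, which had 1 read in DMSO and 16 at 24 h. Neither was called without DMSO replicate 1 or without 24 h replicate 2, and SRGN was not called whichever of the 4 libraries was left out. Of 34 monocyte and macrophage markers, 14 fell and 4 rose, with a median of -1.30 (-1.89 without 24 h replicate 1 and -0.81 without DMSO replicate 2), or -0.51 with the 6 genes that had no read in 1 group set to their bound. MS4A7 fell from 87.4 and 90.2 CPM to 1.73 and 1.87 CPM (-5.62 ± 0.19), and the costimulatory ligand CD86 from 0.783 and 1.22 CPM to no reads (at least 13.9-fold lower). Markers that rose were MERTK, a receptor for the uptake of dying cells, from 0.448 and 0.734 CPM to 6.08 and 5.47 CPM (3.25 ± 0.29), TREM1 (1.24 ± 0.26), ADGRE5 (0.82 ± 0.08) and CD68. CD14 was at 1.29 and 0.587 CPM against 0.577 and 0.867 CPM, with overlapping libraries (-0.32 ± 0.42, adjusted p = 0.58).

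Of 29 genes of leukocyte adhesion and migration, 16 fell and 5 rose, with a median of -0.47. ITGAL, the integrin LFA-1 alpha chain, fell from 782 and 822 CPM to 106 and 118 CPM (-2.84 ± 0.07), while the tetraspanin CD82 rose from 50.5 and 51.3 CPM to 114 and 117 CPM (1.18 ± 0.11) and the adhesion molecule ICAM3 by 1.03 ± 0.15. Of 10 tested genes of the MHC class II list, 3 fell and 1 rose, near the shares over all genes. None of those called encodes a class II chain, and every chain listed was under 1 CPM in all 4 libraries. CD74, the invariant chain, fell from 223 and 225 CPM to 48.9 and 48.5 CPM (-2.20 ± 0.09), and RFX5, a factor of the class II promoter, rose by 0.75 ± 0.09. Its partners RFXAP and RFXANK fell by 0.69 ± 0.12 and 0.37 ± 0.14, and RFXANK was not called whichever of the 4 libraries was left out. The 30 actin cytoskeleton genes divided evenly, with 11 higher and 11 lower. Beside CTTN, the myosin light chain MYL9 rose from 1.90 and 1.86 CPM to 23.9 and 25 CPM (3.70 ± 0.21). The actin crosslinker FLNA (-1.78 ± 0.15) and the calponin-like TAGLN2 (-1.73 ± 0.10) fell.

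The interferon response split within itself. Of 30 genes, 14 rose (10 without 24 h replicate 2) and 10 fell. The median of 0.33 was 0.02 without DMSO replicate 1 and 0.68 without DMSO replicate 2. IFIT2, an RNA-binding antiviral protein, rose from 0.448 and 0.538 CPM to 2.88 and 2.97 CPM (2.55 ± 0.35), IFIT1 from 0.448 and 0.245 CPM to 2.99 and 2.33 CPM (2.94 ± 0.58) and RSAD2, viperin, from 0.504 and 0.343 CPM to 2.20 and 2.42 CPM (2.45 ± 0.40). OAS2, a sensor of double-stranded RNA, fell from 18.5 and 18.7 CPM to 3.46 and 3.56 CPM (-2.40 ± 0.25), IFI44L from 16.9 and 17.6 CPM to 3.67 and 3.47 CPM (-2.27 ± 0.26), and the tethering protein BST2 from 30.4 and 29.9 CPM to 9.07 and 10.2 CPM (-1.64 ± 0.14). As in nearly every called gene, the BRM014 libraries of these 6 did not overlap the DMSO libraries.

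The upstream windows of IFIT1 (chr10:89392373-89392622, plus strand) and BST2 (chr19:17405631-17405880, minus strand) are printed because the genes moved in opposite directions and both hold GAAANNGAA, the core of the interferon-stimulated response element. This core occurs on either strand in 7.06% of all windows, and it can overlap itself, as in BST2, which was chosen after its values were seen. Capitals mark the match or its reverse complement.
IFIT1: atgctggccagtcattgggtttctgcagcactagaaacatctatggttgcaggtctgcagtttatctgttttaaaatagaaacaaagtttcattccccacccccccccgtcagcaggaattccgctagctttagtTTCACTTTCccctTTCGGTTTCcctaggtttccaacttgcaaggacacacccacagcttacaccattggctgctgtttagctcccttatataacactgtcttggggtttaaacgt
BST2: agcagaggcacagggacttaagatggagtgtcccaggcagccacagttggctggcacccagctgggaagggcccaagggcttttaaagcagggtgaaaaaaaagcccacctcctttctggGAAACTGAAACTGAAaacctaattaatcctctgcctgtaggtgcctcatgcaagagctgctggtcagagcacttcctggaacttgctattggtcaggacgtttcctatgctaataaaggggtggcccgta

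Of 25 inflammatory cytokines and regulators, 10 rose and 7 fell (median 0.54). Immediate early and ERK feedback genes, which report growth factor signalling, rose in 15 of 30 cases, 11 of them by 1 or more, and fell in 3 (median 0.71). EGR1, a zinc finger factor induced by ERK, rose from 7.61 and 7.78 CPM to 87.5 and 98.5 CPM (3.59 ± 0.19), and DUSP4, a phosphatase of ERK, from 6.88 and 8.95 CPM to 28.7 and 33.9 CPM (1.98 ± 0.13). JUN, a subunit of AP-1, went the other way, from 18.7 and 20 CPM to 6.92 and 10.3 CPM (-1.16 ± 0.15). Of 22 genes that report FLT3 and STAT5, 9 rose and 5 fell (median 0.12). SOCS1, a feedback inhibitor of JAK kinases, rose from 1.12 and 1.22 CPM to 11.2 in both libraries (3.24 ± 0.20), while CISH, another STAT5-induced feedback gene, fell from 7.33 and 6.31 CPM to 2.20 and 1.73 CPM (-1.80 ± 0.16). Of 15 Kruppel-like factors, 6 rose and 4 fell, with KLF10 next to KLF2 at 2.17 ± 0.11.

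Of 21 genes in a list of G1 cyclins, their kinases and CDK inhibitors, 13 rose and 2 fell (median 0.39). Its largest gains were in 3 inhibitors. CDKN1A, p21, rose from 31.8 and 37.7 CPM to 162 and 164 CPM (2.23 ± 0.09), CDKN2B, p15, from 0.728 and 0.930 CPM to 8.76 and 8.94 CPM (3.40 ± 0.36) and CDKN2D, p19, from 5.60 and 7.0 CPM to 24.1 and 27.6 CPM (2.03 ± 0.16). CDK4 fell by 0.75 ± 0.09. CCND2, a cyclin gene with few reads, fell more steeply, from 46 reads in DMSO to 2 at 24 h. Its log2 fold change was -4.44 (-7.50 to -3.44 under the alternatives). Genes of S phase and mitosis had medians near 0. Of 31 DNA replication genes, 12 fell and 5 rose (3 whichever of the 4 libraries was left out), with a median of -0.11, and of 28 mitosis genes 4 fell and 10 rose, with a median of 0.12. RRM2, of ribonucleotide reductase, rose from 233 and 238 CPM to 515 and 547 CPM (1.17 ± 0.07), the helicase subunit MCM2 fell by 0.72 ± 0.09, and the mitotic kinase BUB1 rose by 0.78 ± 0.07. Among 28 p53 target genes, 15 rose and 4 fell (2 without 24 h replicate 1), with a median of 0.54. TP53I3, an oxidoreductase, rose from 5.04 and 3.82 CPM to 33.9 and 29.4 CPM (2.84 ± 0.16), whereas GADD45A, a stress-response gene, fell by 1.53 ± 0.18. Of 18 BCL2 family genes, 5 rose and 4 fell (2 without 24 h replicate 1 or DMSO replicate 2). These counts for the BCL2 family were near the shares over all genes. The survival proteins BCL2 and MCL1 moved in opposite directions: BCL2 fell from 348 in both libraries to 137 and 139 CPM (-1.33 ± 0.07), and MCL1 rose from 213 and 214 CPM to 770 and 789 CPM (1.87 ± 0.07).

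Genes of glycolysis and of cholesterol synthesis fell. Of 23 glycolysis genes, 18 fell, 10 by 1 or more, and 2 rose (1 without 24 h replicate 2 or DMSO replicate 1), with a median of -0.92. ALDOC, aldolase C, fell from 178 and 195 CPM to 7.50 and 6.98 CPM (-4.69 ± 0.19) and PFKFB4, which makes the activator of phosphofructokinase, from 79.6 and 92.8 CPM to 3.72 and 3.51 CPM (-4.57 ± 0.15). PKM, pyruvate kinase, was an exception at 1274 and 1288 CPM against 2407 and 2462 CPM (0.93 ± 0.08). Of 27 genes of cholesterol synthesis and uptake, none rose (1 with only the MV-4-11 libraries fitted) and 20 fell, with a median of -0.69. DHCR7, the last reductase of the pathway, fell from 228 and 223 CPM to 67.9 and 66.8 CPM (-1.75 ± 0.08), CYP51A1 by 1.58 ± 0.07 and FDFT1, squalene synthase, by 1.36 ± 0.07. In lipid handling, 10 of 25 genes fell and 6 rose (4 without 24 h replicate 1 or DMSO replicate 1). The desaturase SCD fell from 1188 and 1231 CPM to 318 and 307 CPM (-1.95 ± 0.07) and lipoprotein lipase, LPL, by 2.02 ± 0.08. PPARG, the nuclear receptor of lipid storage, rose from 3.53 and 3.08 CPM to 43.5 and 43.2 CPM (3.72 ± 0.12) and the cholesterol exporter ABCA1 by 1.54 ± 0.13.

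Lysosome genes rose in 16 of 30 cases and fell in 8 (5 without 24 h replicate 1 or DMSO replicate 2), with a median of 0.37. SMPD1, acid sphingomyelinase, rose from 7.89 and 7.78 CPM to 32.4 and 32.8 CPM (2.05 ± 0.12), and ASAH1, acid ceramidase, fell from 102 and 105 CPM to 44.6 and 44.3 CPM (-1.21 ± 0.08). The oxidative stress list had 12 of 24 higher and 4 lower (median 0.44), led after HMOX1 by NQO1, a quinone reductase, from 20.9 and 21.9 CPM to 138 and 148 CPM (2.74 ± 0.08), and SLC7A11, the cystine transporter, by 1.94 ± 0.17. In the serine and ATF4 list, 6 of 25 rose and 8 fell, against 23.6% and 22.4% of all genes, with SHMT2 at -1.63 ± 0.09. Of 27 chaperones and unfolded protein genes, 10 rose and 9 fell. XBP1, a factor of the unfolded protein response, rose from 206 and 210 CPM to 1582 and 1618 CPM (2.94 ± 0.08), and HSPD1, the mitochondrial chaperonin, fell by 1.13 ± 0.07.

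**Figure D3:**
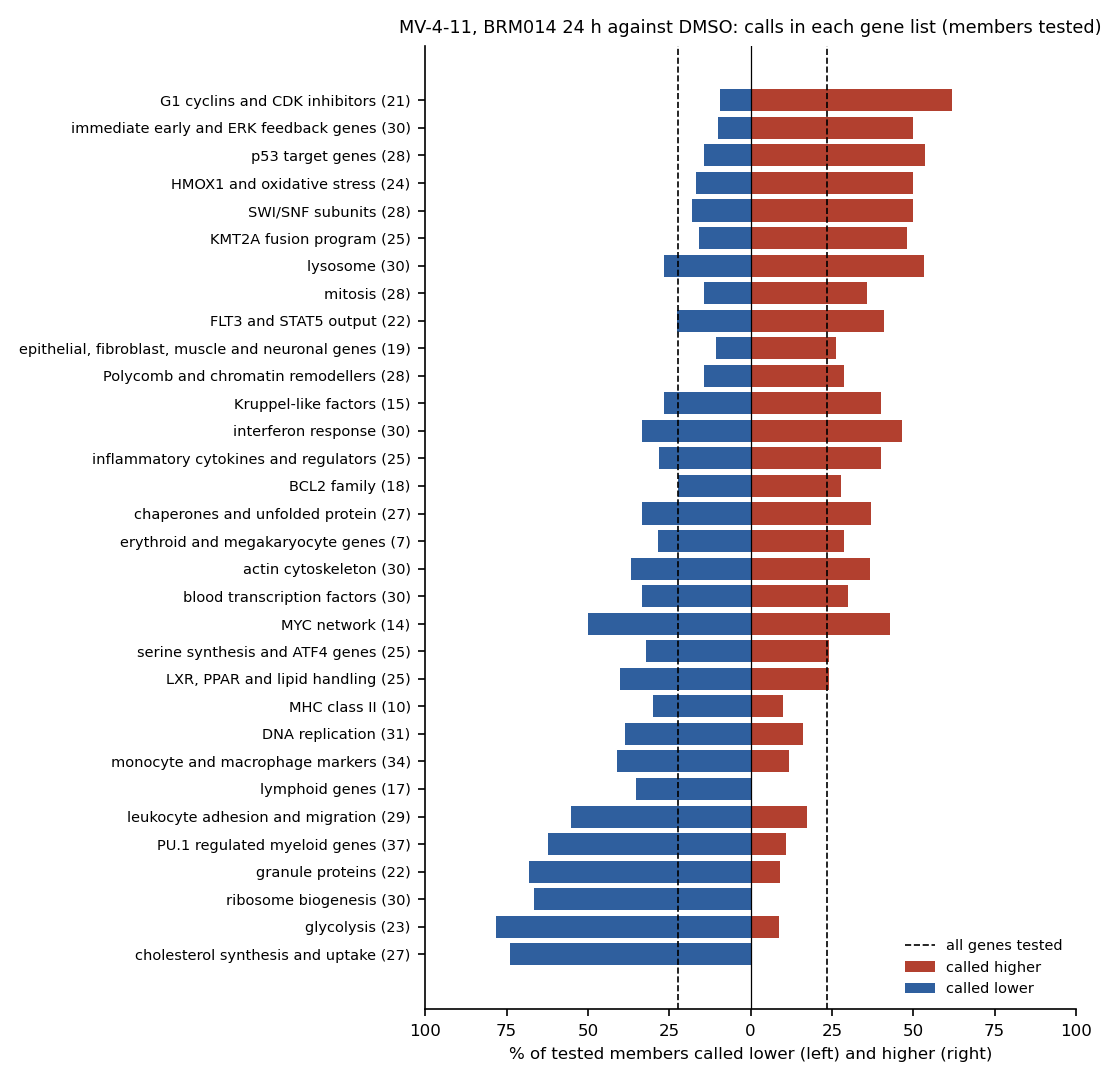
For each of the 32 gene lists, the bars give the percentage of tested members (number in brackets) called higher to the right and lower to the left after 24 h of BRM014. Dashed lines mark the shares over all genes tested, 23.6% higher and 22.4% lower; cholesterol synthesis, glycolysis, ribosome biogenesis, granule proteins and PU.1 regulated genes reach farthest to the left.

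Summed levels of markers of other cell types differed between the groups, in each list mainly through 1 gene. The summed level of the 22 erythroid and megakaryocyte genes in the files was 22.3 to 22.6 CPM in DMSO and 40.3 to 40.6 CPM at 24 h, with no read in any of the 4 libraries for 12 of them. Without EPOR, left out after its value was seen, the sum was 7.16 to 8.32 CPM and 7.18 to 7.76 CPM. Of 7 tested, 2 rose and 2 fell, and 1 each without 24 h replicate 2 or DMSO replicate 1. EPOR, the erythropoietin receptor, rose from 15.4 and 14 CPM to 33.1 and 32.8 CPM (1.16 ± 0.14), and ITGA2B, a platelet integrin, fell from 2.29 and 3.13 CPM to 0.524 and 0.547 CPM (-2.33 ± 0.29). Lymphoid genes summed to 178 to 179 CPM and then 74.7 to 80.1 CPM, and 6 of 17 fell. Without CD4, which monocytes also express, they summed to 27.1 to 27.6 CPM and then 6.19 to 9.31 CPM. Epithelial, fibroblast, muscle and neuronal genes, which include DMPK, summed to 29.7 to 30.2 CPM and then 49.2 to 49.7 CPM, with 5 of 19 higher (3 without 24 h replicate 2 or DMSO replicate 2) and 2 lower (1 without 24 h replicate 2). Over all genes, 23.6% were higher and 22.4% lower. Without DMPK the epithelial, fibroblast, muscle and neuronal genes summed to 29.5 to 29.8 CPM and then 30.5 to 31.0 CPM. Their part in the changes above was not tested.

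Some genes that changed by 1 or more in the same direction lay side by side. Among 15999 tested genes placed on the genome (GENCODE v29), 36 runs of 3 or more neighbours fell together and 18 rose together. The longest held 9 genes, from TCN1 to MS4A14 (chr11:59852800-60417756), 7 of them members of the MS4A family of membrane proteins. MS4A3, a marker of granulocyte-monocyte progenitors, fell there from 98.8 and 108 CPM to 20.5 and 22.2 CPM (-2.28 ± 0.12), along with MS4A6A and MS4A7. TCN1, MS4A2, MS4A4A and MIR6503, all low, were each no longer called without at least 1 library, and MS4A7 and MS4A14 overlap on 1 strand. A run of 5 rose around the carbonic anhydrases (chr8:85220587-85779090). CA2, the main cytosolic form, rose there from 371 and 414 CPM to 3223 and 3155 CPM (3.02 ± 0.07), and CA13 from 2.74 and 2.40 CPM to 15.7 and 17.3 CPM (2.68 ± 0.23). CA3-AS1 overlaps both CA3 and CA2, so reads of the 3 cannot be fully separated, and CA3 was not called without 24 h replicate 2 or DMSO replicate 1. Next in length, 7 runs tied at 4 genes, of which 3 rose and 4 fell. Those that rose lie around OSM, around SLC16A6 and among histone genes, and those that fell include LILRA2, LILRA1, LILRB1 and LILRB4, inhibitory and activating leukocyte receptors. The one described here, named first only by the sorting of chromosomes, holds TRIM72, PYDC1, ITGAM and ITGAX (chr16:31214021-31382997), all lower. PYDC1 overlaps TRIM72 and was called with few reads (adjusted p = 0.0487), a call lost without 3 of the 4 libraries. ITGAM, the integrin CD11b, fell from 2.07 and 2.20 CPM to 0.629 and 1.14 CPM (-1.24 ± 0.24), and TRIM72 from 13.3 and 14 CPM to 1.42 and 0.912 CPM (-3.56 ± 0.29).

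The change in MV-4-11 was compared with that in the other lines through the difference between the 24 h effects. In MOLM-13, 22.7% of genes were higher and 23.5% lower with BRM014 at 24 h, and in THP-1 25.9% and 24.1%. Of the 1135 genes that rose by 1 or more in MV-4-11, 753 (66.3%) were higher in MOLM-13 and 707 (62.3%) in THP-1. Conversely, 60.5% of the 1320 genes that rose by 1 or more in MOLM-13 and 35.8% of the 1868 in THP-1 were higher in MV-4-11. Of the 1491 that fell by 1 or more, 877 (58.8%) were lower in MOLM-13 and 798 (53.5%) in THP-1, and 66.5% of 1570 and 57.8% of 1466 the other way round. The effect in MV-4-11 exceeded that in MOLM-13 for 1984 genes (11.8%) and was below it for 1732 (10.3%). Against THP-1 the counts were 3102 (18.5%) and 2752 (16.4%). In 1147 genes the MV-4-11 effect was above both and in 991 below both. Since both differences use the same MV-4-11 libraries, these shared counts are not independent.

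Ribosome biogenesis genes fell less in MV-4-11: the difference was above 0 for 22 of 30 against MOLM-13 and for 20 of 30 against THP-1 (1 below). Cholesterol genes differed in opposite directions, with the MV-4-11 effect above that of MOLM-13 for 18 of 27 and below that of THP-1 for 16. In the serine and ATF4 list it was above MOLM-13 for 19 of 25 and below for none, but above THP-1 for 8 and below for 8. In the interferon list it was above MOLM-13 for 17 of 30 and below for 2, and above THP-1 for 8 and below for 6. FLT3 rose in MV-4-11 and fell in MOLM-13 (-0.30 ± 0.06), a difference of 1.07 ± 0.09. CDKN1A rose by 2.23 in MV-4-11, 0.21 in MOLM-13 and 3.40 in THP-1, and differed from both (2.02 ± 0.12 and -1.17 ± 0.12). PKM rose in MV-4-11 and MOLM-13 and fell by 0.60 ± 0.08 in THP-1. PFKFB4, so steeply lost in MV-4-11, rose by 0.47 ± 0.14 in THP-1, from 7.74 to 10.7 CPM.

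Some genes moved otherwise in MV-4-11 than in both other lines. UGCG, the enzyme that starts glycosphingolipid synthesis, rose from 37.6 and 42.7 CPM to 244 and 239 CPM (2.59 ± 0.11). It stood at mean levels of 29.7 and 32.2 CPM in MOLM-13 and 19.9 and 18.8 CPM in THP-1, with differences of 2.47 ± 0.16 (adjusted p = 1.6e-09) and 2.67 ± 0.17 (adjusted p = 3.3e-10). ID2, an inhibitor of basic helix-loop-helix factors, rose from 2.97 and 3.28 CPM to 31.7 and 31.8 CPM (3.34 ± 0.11), and in the other lines by 0.82 ± 0.08 and 0.68 ± 0.08, from mean DMSO levels of 46.5 and 68.4 CPM. LRG1, a secreted glycoprotein of granulocytes, fell from 42.4 and 44.4 CPM to 8.60 and 8.76 CPM (-2.32 ± 0.12), while it rose by 1.31 ± 0.10 in MOLM-13 and 2.17 ± 0.10 in THP-1. The loss of ARG1 belonged to a gene that was under 1 CPM in DMSO in both other lines (0.584 and 0.350 CPM), where its change was -0.12 ± 0.62 (adjusted p = 0.95) and 1.92 ± 0.55 (adjusted p = 0.0068).

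**Figure D4:**
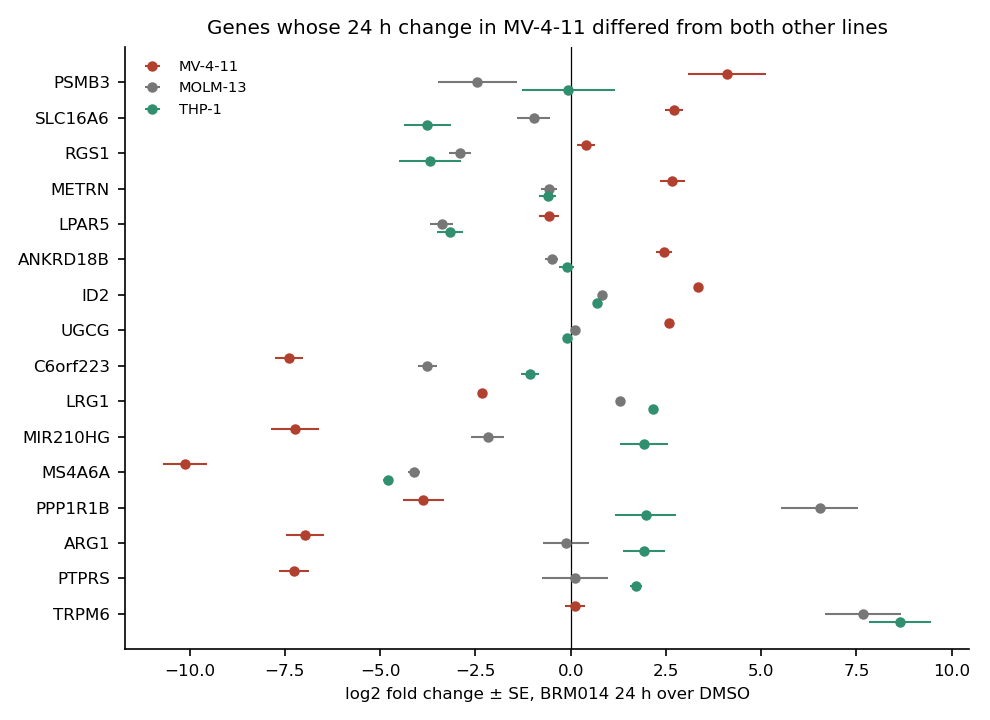
Log2 fold change ± SE at 24 h in MV-4-11 (red), MOLM-13 (grey) and THP-1 (green), 2 libraries per group, for the 16 genes whose MV-4-11 effect differed most from both other lines. UGCG and ID2 lie to the right in MV-4-11 and near 0 to 1 elsewhere, and LRG1 at -2.32 in MV-4-11 but at 1.31 and 2.17 elsewhere; MS4A6A (no reads at 24 h in MV-4-11) and TRPM6 (no reads in DMSO in the other lines) have fitted values that depend on the prior count.

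Compared with 24 h, MV-4-11 cells at 72 h of BRM014 had 3119 genes higher (18.6%) and 2830 lower (16.9%). The 24 h libraries serve both comparisons, so the values are set side by side without an overlap. SPI1 regained part of its level, at 189 and 176 CPM (1.11 ± 0.12 from 24 h to 72 h), whereas IRF8 went on to 5.26 and 5.37 CPM (-2.09 ± 0.12), MYC to 37.1 and 40.8 CPM (-1.77 ± 0.08) and BCL2 to 30.8 and 28.4 CPM (-2.22 ± 0.08). SCD passed its DMSO level at 1788 and 1875 CPM (2.55 ± 0.07). Of 27 cholesterol genes, 24 were higher at 72 h than at 24 h and none lower. Lysosome genes were higher in 25 of 30 cases, among them ASAH1 at 253 and 239 CPM (2.47 ± 0.08) and DNASE2 at 267 and 256 CPM (1.55 ± 0.11). All 31 DNA replication genes, all 28 mitosis genes and 27 of 30 ribosome biogenesis genes were lower at 72 h than at 24 h.

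The genes with the largest changes from 24 h to 72 h included secreted proteins and enzymes. CHI3L1, a chitinase-like secreted protein of macrophages and neutrophils, went from 2.01 and 1.37 CPM in DMSO to 0.157 and 0.228 CPM at 24 h and 152 and 162 CPM at 72 h (9.61 ± 0.16 from 24 h). PTGDS, a prostaglandin D synthase, went from 0.524 and 0.319 CPM at 24 h to 103 and 104 CPM (7.94 ± 0.26). Its neighbour LCNL1 had no read at 24 h and 12.7 and 11.2 CPM at 72 h. NLRP12 reached 49.7 and 50.4 CPM (2.77 ± 0.11). In the other direction, PRG2 dropped to 2.55 and 3.65 CPM (-4.53 ± 0.15) and the kinase MAP4K1, at 44.8 and 46.4 CPM in DMSO and 8.44 and 8.30 CPM at 24 h, to 0.339 and 0.456 CPM (-4.36 ± 0.24). PFDN6, a prefoldin subunit, and PRTN3, a granule protease, were also among the steepest losses, but their 24 h libraries lay far apart (36.4 and 0.821 CPM, 2.15 and 25.8 CPM) and neither was called without 1 of them. CTTN continued upward to 142 and 143 CPM (0.60 ± 0.10).

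**Figure D5:**
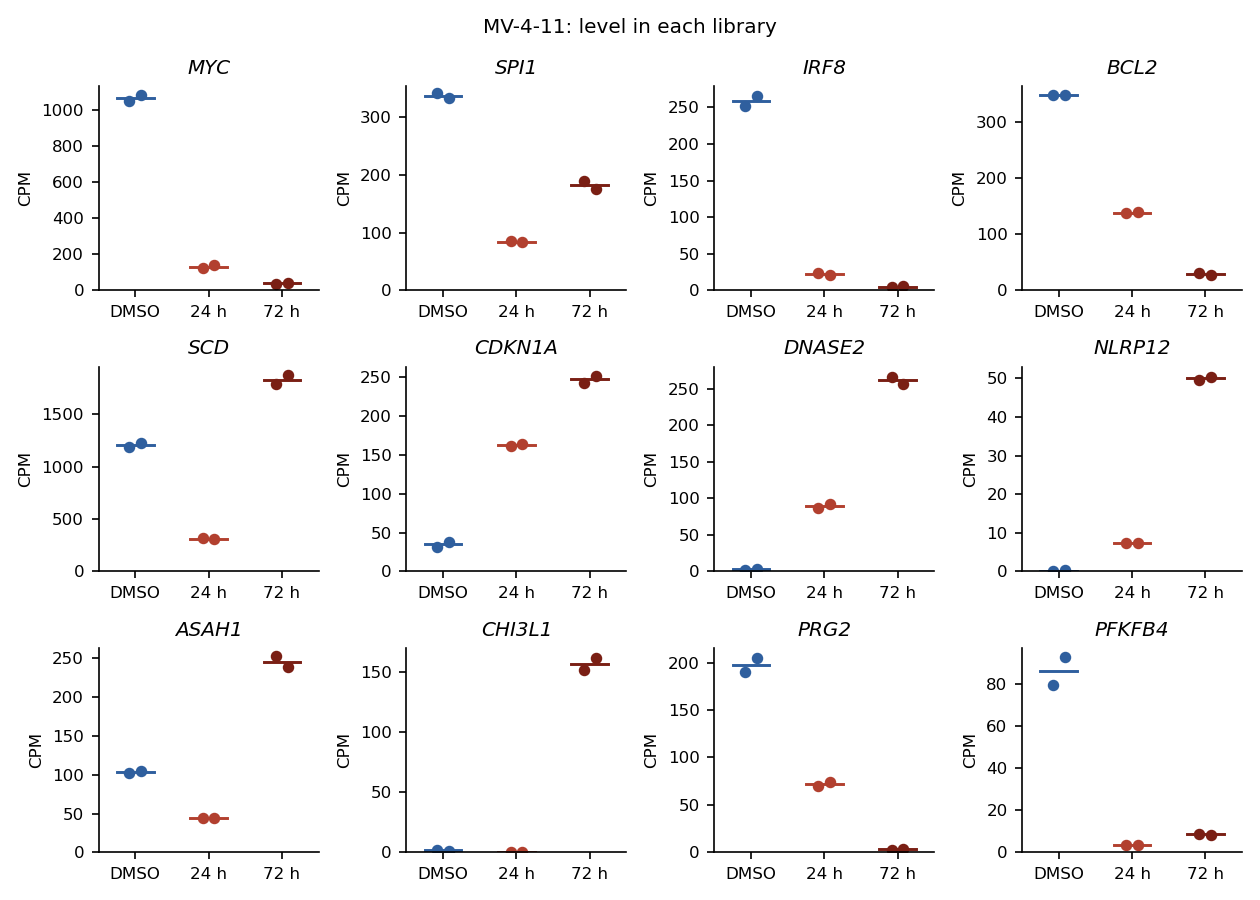
CPM of 12 genes in each MV-4-11 library (points) with the group mean (bar), for DMSO, 24 h and 72 h of BRM014, each panel on its own axis from 0. SPI1, SCD and ASAH1 fall at 24 h and are higher again at 72 h, MYC, IRF8, BCL2 and PRG2 fall at both steps, and CHI3L1 appears at 72 h (152 and 162 CPM).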

How the data were processed

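The authors deposited, for each library, read counts per gene symbol without normalization. According to the submitters' processing notes, hg38, DESeq2, HTSeq and HISAT2 2.1.0 were used, with no roles given, and annotation and strand setting are not given in the sources used here. Genes that overlap others (among those named, for example, MCOLN1, ENO2, MXD1 and SLC16A6) therefore have uncertain counts. Summary lines that name no gene were left out. edgeR 4.0.16 under R 4.3.3 was fitted once to all 22 libraries by group, since 2 libraries a group give little information on the spread alone. Genes passed filterByExpr with a minimum count of 10, TMM factors scaled the libraries, and quasi-likelihood tests were made with Benjamini-Hochberg adjustment over 16794 genes; a call is an adjusted p under 0.05. CPM are counts per 1000000 reads of the scaled library size. Errors are standard errors of the log2 fold change, n = 2 per group. A gene at 0 is given a bound against 3 counts over the group, which covers counting error only.

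The scripts were tested on simulated counts. The comparison and the 32 gene lists were chosen with earlier results of these data known. Named genes are the 12 largest called changes a direction at 5 CPM or more with groups that do not overlap, up to 3 called members a list and direction, a preset list of regulators and markers, the 8 genes a direction that differed most from both other lines, the 6 largest later changes a direction, the 5 genes with most reads and none in the other group, and 3 of the longest runs of neighbours, the third taken in sorting order from 7 tied at 4 genes. A few genes that this rule names are not reported here. Positions are from GENCODE v29 by symbol. Alternatives were RLE scaling, library size alone, no filter, a minimum count of 50, DESeq2 1.42.0, a replicate block, other fits of the spread and leaving out each library.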

Additional observations from a re-analysis of the deposited data

Results flagged for a closer look

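The test of the difference between lines singled out the following results. The 24 h effect of BRM014 in MV-4-11 differed from that in MOLM-13 for 3716 genes and from that in THP-1 for 5854 genes. The 16 genes below differed from both lines in the same direction, and the value given for each is the smaller of its 2 differences on the log2 scale.

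Above both lines stood SLC16A6, a transporter of the monocarboxylate family, at 3.69 (3.25 and 4.36 without MOLM-13 24 h replicate 1 and 2). It rose in MV-4-11 from 6.66 and 10.8 CPM to 58.0 and 57.8 CPM (2.72 ± 0.24) and fell elsewhere (-0.97 and -3.77), and its reads may include those of ARSG on the other strand. RGS1, which turns off G protein signals, differed by 3.29 because it fell by 2.90 and 3.69 in the other lines while it stood at 19.1 and 21.6 CPM against 29.1 and 24.4 CPM here (0.39, adjusted p = 0.20). METRN, a secreted factor, differed by 3.25, going from 1.01 and 0.636 CPM to 5.45 and 4.97 CPM. LPAR5, a lysophosphatidic acid receptor, differed by 2.60, with 6.49 and 7.63 CPM against 4.25 and 5.29 CPM here (-0.56, adjusted p = 0.083) and losses of 3.38 and 3.16 elsewhere. ANKRD18B differed by 2.55, going from 2.35 and 2.25 CPM to 12.6 CPM in both libraries. ID2 differed by 2.52 and UGCG by 2.47. PSMB3 differed by 4.16, but that value rests on 24 h replicate 2 and was 0.51 (adjusted p = 0.864) against THP-1 without it.

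Below both lines stood PTPRS at -7.36 (-6.44 and -12.35 against MOLM-13 without either MOLM-13 DMSO library), ARG1 at -6.85 (-5.80 and -7.44 without either MOLM-13 24 h library), MIR210HG at -5.05 and C6orf223 at -3.62. PPP1R1B, an inhibitor of protein phosphatase 1, stood at -5.84 (-4.99 and -10.91 without THP-1 DMSO replicate 1 and 2): it fell from 18.2 and 16.6 CPM to 1.57 and 0.821 CPM here and rose elsewhere. LRG1 stood at -3.63. The values of TRPM6, -7.55, and MS4A6A, -5.32, are fitted against a group with no reads and are no bounds. TRPM6, an ion channel kinase, was at 12.2 and 10.7 CPM against 13.7 and 11.1 CPM in MV-4-11 (0.12, adjusted p = 0.78).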

How the results depend on the processing

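The counts of called genes in the 4 comparisons stayed within 1.5 times of the reported ones under every alternative run. For BRM014 24 h against DMSO they ran from 3610 to 4506 higher and from 3344 to 4456 lower over other scalings, filters, tools and fits. Leaving out 1 library at a time gave 3227 to 3401 higher and 3047 to 3160 lower. For the difference from MOLM-13 it gave 1433 to 1721 and 1303 to 1476, for that from THP-1 2543 to 2686 and 2215 to 2327, and for 72 h against 24 h 2374 to 2453 and 2088 to 2273. When a group was left with 1 library, that library was assumed to vary like the other groups.

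The correlation of deviations of same-numbered libraries was 0.018, 0.001 and 0.023 over the 3 pairs of MV-4-11 groups. It was taken over all genes tested, and counting error in genes with few reads lowers it. It therefore cannot show that the libraries were unpaired. With the replicate number as a block, 3864 genes were higher and 3649 lower at 24 h, 1818 and 1586 differed from MOLM-13, 2929 and 2544 from THP-1, and 2992 and 2696 between 72 h and 24 h.

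Of 209 named genes called at 24 h, 172 stayed called under every alternative and 37 lost the call without 1 library. SMARCA4 was called higher with library size alone as the scaling (0.18, adjusted p = 0.036). CD14, not called in any of these, ran from -0.81 to 0.32 when 1 library was left out and was above 0 without DMSO replicate 1. With a minimum of 10 reads, 39 genes were on and 66 off from 0, and with no minimum fold 251 runs of neighbours rose and 190 fell. Some list counts moved by more than 1.5 times under other fits. With only the MV-4-11 libraries fitted, 7 oxidative stress genes fell instead of 4, 4 glycolysis genes rose instead of 2, 4 epithelial, fibroblast, muscle and neuronal genes fell instead of 2, and 2 ribosome biogenesis genes and 1 cholesterol gene rose instead of none. With only the 4 compared libraries the oxidative stress, epithelial, ribosome and cholesterol counts were the same as these, and the adhesion median was -1.1 instead of -0.47. With no filter on low counts, 7 oxidative stress and 4 granule genes changed in those directions instead of 4 lower and 2 higher. With library size alone, 5 lysosome genes fell instead of 8, and 1 ribosome and 1 cholesterol gene rose. Other scalings moved the median of all genes by at most 0.071. Upstream windows covered 67.6% of the PU.1 list and 70% of the interferon list, so a motif share over these lists would be void and is not given.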
